A study of Mus musculus with 4 samples.

Results

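The 97 genes described here encode proteins that splice pre-messenger RNA or unwind and remodel RNA, and they were followed in mouse extraembryonic endoderm (XEN) cells and embryonic stem (ES) cells. They were chosen by name. Every gene was taken whose single annotated symbol begins with Hnrnp, Srsf, Sf3a, Sf3b, Snrp, U2af, Ddx, Dhx, Prpf or Rbm, without Snrpn, Ddx3x and Ddx3y. This gave 97 of the 8251 genes that the array annotates with 1 symbol. A gene with several probe sets was represented by the one with the highest mean signal over the 4 arrays, and the 97 genes had 133 probe sets in all. By family there were 16 Hnrnp, 9 Srsf, 11 Sf3 and U2af, 8 Snrp, 8 Prpf, 22 Ddx, 7 Dhx and 16 Rbm genes. One of the 8 Snrp entries, Snrp1c-ps2, is annotated as a pseudogene.

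Introns are removed by the spliceosome, which is built on each transcript from small nuclear ribonucleoproteins (snRNPs) and many further proteins. Sm proteins, encoded by some of the Snrp genes, form a ring on the small nuclear RNAs. U2AF and SF3 proteins help the U2 snRNP to recognise the 3' end of an intron, and Prpf proteins build and activate the tri-snRNP. SR proteins (Srsf) and hnRNPs bind exons and introns and steer which splice sites are used. RNA helicases of the DEAD box (Ddx) and DEAH box (Dhx) groups spend ATP to rearrange RNA, in splicing and also in ribosome assembly, export, translation and decay. Both cell types need this machinery. ES cells are pluripotent cells of the early embryo, and XEN cells are stem-like lines of the lineage that lines the yolk sacs.

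Total RNA of 4 cultures was read on 4 Affymetrix MG_U74Av2 arrays. The XEN group held 3 cultures of 2 lines. IM8A1-I and IM8A1-II were both line IM8A1 (PO strain) at passage 27. IM8A1-I grew on gelatin in 70% EMFI-CM. IM8A1-II had 4 days on plain tissue culture plastic, and its medium was RPMI 1640 with 20% FBS. XEN1-3 (ICR strain, passage 18) had the substrate and medium of IM8A1-I. ES cells were represented by a single R1 culture, undifferentiated, on gelatin with LIF. Since 2 of the 3 XEN cultures share a line and ES has no second culture, the p-values measure only the spread between these XEN cultures, and ES is assumed to vary as they do. In such whole-culture RNA, fewer cells of a type and less RNA per cell cannot be told apart.

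All 6 XEN markers tested were higher in XEN and all 6 ES markers lower. Per the file headers the 3 XEN arrays came from one chip lot and run day and the ES array from another, so lot, day and cell type cannot be told apart. The record of XEN1-3 carries a message that fluid was not detected. The ratio of 3' to 5' signal of the actin control was 1.21 to 1.24 in XEN and 1.25 in ES. Medians over all probe sets were 48.8 to 52.2 units in XEN and 46.7 in ES. Of the other lists, fibroblast or feeder markers summed to 546 to 674 units in XEN and 465 in ES, with 1 lower call (Thy1) among 6 tested. Trophoblast markers summed to 83.8 to 115 units in XEN and 955 in ES, of which Tfap2c, the 1 lower call among 5, gave 766.8. Germ layer markers summed to 54.3 to 69.1 and 180 units with 0 calls among 4 tested by limma. At an unadjusted p under 0.05, 3 of these 4 were lower, beside 14.5% of all probe sets. Thy1, Tfap2c and the 4 tested germ layer markers were under the limit in every XEN culture and tested only because the ES array reached it. Col3a1, Prrx1, Cdx2, Elf5, Pax6 and Myf5 of these lists were under the limit on all 4 arrays and were not tested. The part of these lists in the results below was not tested.

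Most of the splicing and helicase genes were somewhat dimmer in XEN than in ES cells, and few passed limma's test at an adjusted p under 0.05. On a scale of log2(signal + 10.5 units), 68 of the 95 genes tested had a difference, XEN minus ES, below 0, compared with 47.0% of the 8582 probe sets tested on the array. Their median log2 difference was -0.34, against 0.05 over all probe sets tested, and for single XEN cultures it was -0.28 (IM8A1-I), -0.36 (IM8A1-II) and -0.33 (XEN1-3). The middle 50% of the genes lay between -0.73 and 0.05. Dhx32 and Rbm22 were not tested because no array reached the background limit of 27.3 units (the 40th percentile of all values). With them included the median of the 97 was also -0.34, against 0.05 over all 12422 probe sets that are not controls. The background was not matched to the members. A member is its gene's brightest probe set, and 93 of the 97 reached the limit on every array. The 8582 probe sets can include several per gene and were kept if any array reached the limit. With a filter at the 60th percentile the medians were -0.39 (members) and 0.03 (all probe sets). A background matched for brightness was not tested, here or below.

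In limma's moderated test across the whole array, 3 of the 95 genes passed as lower in XEN (adjusted p under 0.05) and 0 as higher. Over all probe sets tested 5.05% fell and 5.58% rose, so the share of members called, 3.16% lower, was no higher than the background. The 3 became 1 without IM8A1-I, 1 without IM8A1-II and 10 without XEN1-3. Calls over all probe sets moved the same way, fewer without IM8A1-I or IM8A1-II and more without XEN1-3 (counts below). At an unadjusted p under 0.05, 21 of the 95 were lower and 3 higher, beside 14.5% and 15.1% of all probe sets. The ES signal lay above all 3 XEN signals for 56 genes, where 34.0% of all probe sets did so. It lay below all 3 for 14 genes, where 38.9% did so, and within the XEN range for the other 25. The direction of all these differences rests on the 1 ES array. The proliferation markers lay the same way, with 10 of 11 below 0 (47.0% of all probe sets tested) and a median of -0.51. Cdc20 and Ccne1 were called lower, 2 of 11, beside 5.05% of all probe sets. The part of these markers in the result was not tested.

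**Figure D1:**
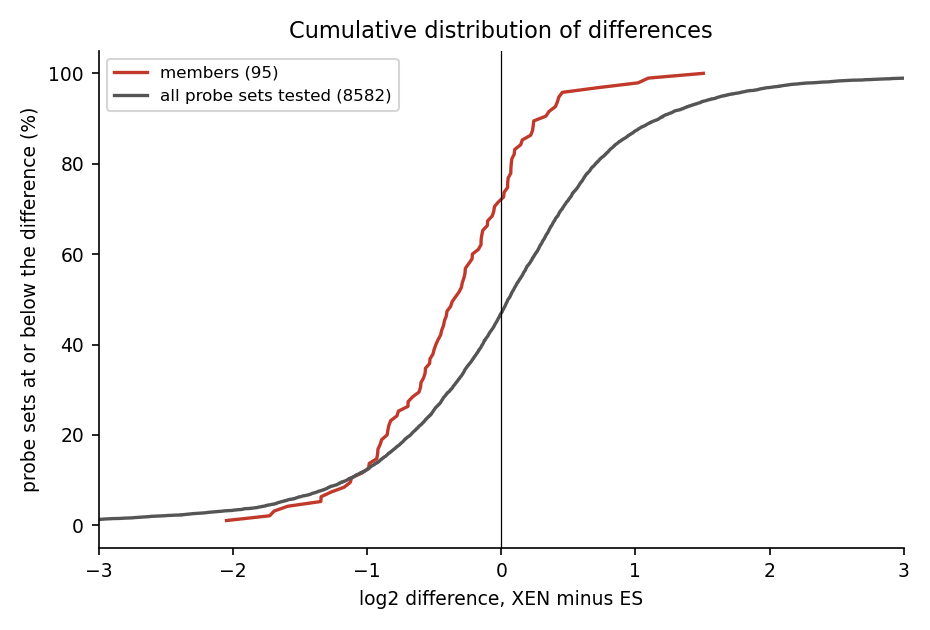
Cumulative share (vertical axis, percent) of probe sets at or below each log2 difference, XEN minus ES (horizontal axis), for the 95 members tested and for all 8582 probe sets tested. The members' curve lies to the left around its middle, with a median of -0.34 against 0.05, and its right side reaches 100% at 1.51, while its left side meets the other curve near -1.

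Differences of 2-fold or more were about as common as on the whole array on the lower side and rarer on the higher side. Signals at least 2-fold lower (a log2 difference of -1 or less on the scale above) than in ES were seen for 15 members (15.8%) in IM8A1-I, for 15 also in IM8A1-II and for 13 (13.7%) in XEN1-3, beside the 14.2%, 13.4% and 13.1% of all probe sets. Signals at least 2-fold higher were seen for 4, 0 and 4 members, where all probe sets gave 14.2%, 14.3% and 13.9%. At least 2-fold lower in all 3 XEN arrays were 5 members (7.74% of all probe sets), and at least 2-fold higher in all 3 were 0 members (8.13%). The median standard deviation over the 3 XEN cultures was 0.23 in log2 for the members and 0.27 for all probe sets.

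**Figure D2:**
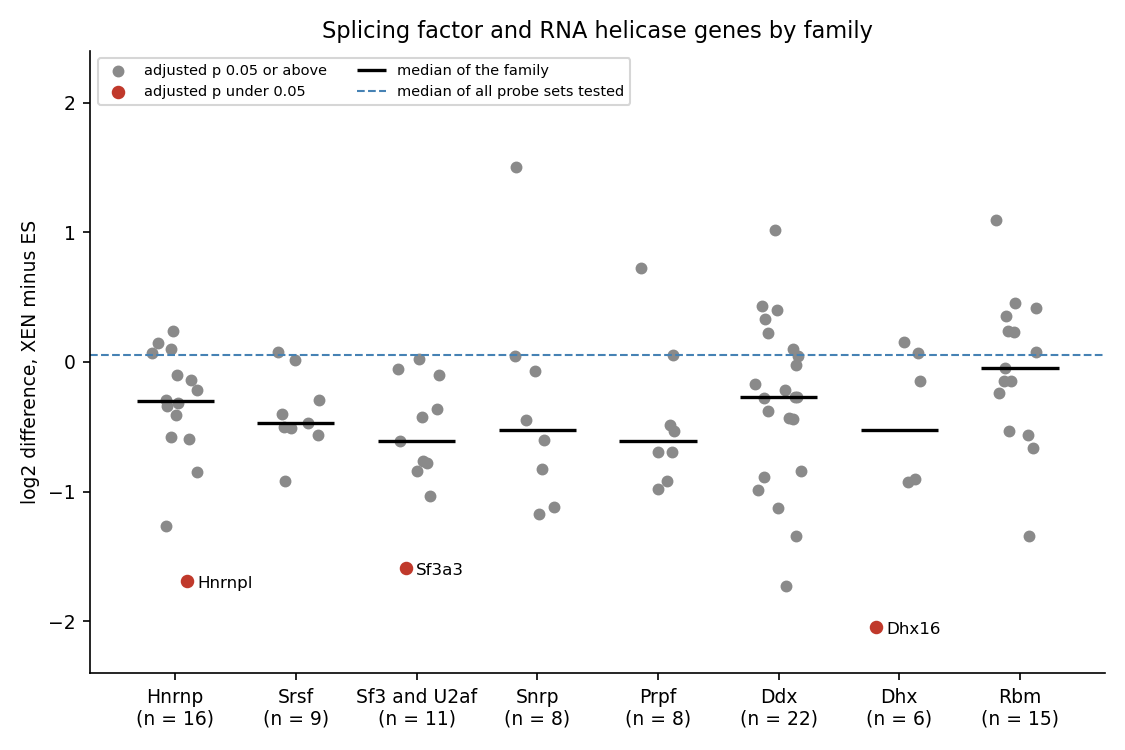
Log2 difference, XEN minus ES (vertical axis), of each tested member, by gene family (horizontal axis), with the family median as a bar and the median of all probe sets tested as a dashed line. Red points are the 3 genes with an adjusted p under 0.05, and the family medians run from -0.61 (Sf3 and U2af, Prpf) to -0.05 (Rbm).

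The 3 genes that fell were Dhx16, Hnrnpl and Sf3a3. Dhx16 is a DEAH box helicase whose yeast counterpart activates the assembled spliceosome before the first catalytic step. The 3 XEN arrays, always given in the order IM8A1-I, IM8A1-II, XEN1-3, read 90.6, 112.7 and 104.7 units, against 455.6 units in ES. The log2 difference was -2.05 ± 0.28 (SE, limma adjusted p = 0.0134). All 3 XEN values lay close together and far below ES, and the call held without any one XEN culture (adjusted p of 0.0460 without IM8A1-I, 0.0396 without IM8A1-II and 0.00827 without XEN1-3).

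Hnrnpl, an hnRNP that binds CA-rich RNA and regulates alternative exons, read 287.8, 281.1 and 288.8 units in the XEN cultures and 947.0 in ES. Its mean of 286 ± 4.19 units in XEN (SD, n = 3) had the narrowest relative spread of the 3 genes. The log2 difference was -1.69 ± 0.25 (adjusted p = 0.0175). Sf3a3, a subunit of the SF3a complex of the U2 snRNP, read 166.9, 231.7 and 218.3 units in XEN and 634.9 in ES, a log2 difference of -1.59 ± 0.30 (adjusted p = 0.0318). Neither gene's XEN values came near the ES value. Without IM8A1-I the adjusted p was 0.0623 for Hnrnpl and 0.0827 for Sf3a3, without IM8A1-II it was 0.0544 and 0.0663, and Sf3a3 also missed the threshold with dim values raised to the limit (0.0709). Each of the 3 genes had 1 probe set, so no second probe set could check the call.

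The promoters of these 3 genes are shown because they are the members that passed the threshold. Whether the 3 are regulated together was not tested. The 250 bases before each gene's start come from RefSeq (GRCm38.p6), all on the plus strand: Dhx16 at chr17:35879528-35879777, Hnrnpl at chr7:28810640-28810889 and Sf3a3 at chr4:124714611-124714860. Capitals mark matches on either strand to the motif letters ETS (CCGGAA), SP1 (GGGCGG) and NFY (CCAAT), none of which overlap here.
Dhx16: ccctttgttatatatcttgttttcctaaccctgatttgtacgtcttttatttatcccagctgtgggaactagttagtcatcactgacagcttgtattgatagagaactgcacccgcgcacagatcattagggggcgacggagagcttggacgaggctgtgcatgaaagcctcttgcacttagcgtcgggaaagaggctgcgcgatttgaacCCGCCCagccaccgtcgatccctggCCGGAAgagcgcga
Hnrnpl: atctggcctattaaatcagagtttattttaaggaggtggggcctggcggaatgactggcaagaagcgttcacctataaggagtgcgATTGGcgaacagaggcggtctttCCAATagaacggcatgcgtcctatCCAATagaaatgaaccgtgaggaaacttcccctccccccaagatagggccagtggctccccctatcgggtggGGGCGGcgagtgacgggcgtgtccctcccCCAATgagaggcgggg
Sf3a3: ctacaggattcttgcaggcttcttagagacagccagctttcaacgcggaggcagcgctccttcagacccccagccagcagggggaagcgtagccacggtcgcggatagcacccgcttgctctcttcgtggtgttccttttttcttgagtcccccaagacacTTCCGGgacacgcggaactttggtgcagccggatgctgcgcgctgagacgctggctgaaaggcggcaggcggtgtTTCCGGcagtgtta
Dhx16 has 1 ETS and 1 SP1 match, Hnrnpl has 1 SP1 and 4 NFY matches, and Sf3a3 has 2 ETS matches, so no one motif is in all 3. RefSeq windows were found for 88 of the 97 members, 113 windows in all. ETS letters were in 39.8% of these and 12.0% of all 32851 windows, SP1 letters in 56.6% and 32.7%, and NFY letters in 46.9% and 33.8%. Letters of the NRF1 motif were in 14.2% and 3.74%, CREB letters (TGACGTCA) in 4.42% and 1.55%, YY1 letters (AAGATGG) in 0.885% and 4.49%, and TATA letters (TATAAA) in 7.08% and 12.4%. Each search read both strands. The members' windows were richer in G and C, with a median of 60.4% against 52.4%, and held a median of 19 CG pairs against 6. The set of all windows includes those of noncoding genes, and the shares are not matched for base composition.

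In the Sf3 and U2af family, whose proteins act with the U2 snRNP, 10 of 11 tested genes had a log2 difference below 0, with a median of -0.61, and ES lay above all XEN arrays for 7. Sf3a3 alone passed the test, and 4 were lower at an unadjusted p under 0.05. For this family and those below, 47.0% of all probe sets tested were below 0, and 34.0% had ES above all XEN arrays. At an unadjusted p under 0.05, 14.5% of all probe sets were lower and 15.1% higher. At the adjusted threshold these shares were 5.05% and 5.58%. U2af1, which reads the AG at the intron's end, stood at 975.3, 640.9 and 706.3 units in the XEN cultures and 1573.8 in ES (log2 difference -1.04 ± 0.33, adjusted p = 0.0994). Its partner U2af2, which binds the polypyrimidine tract, differed less, with 1918 ± 114 units in XEN (SD, n = 3) against 2471 in ES (adjusted p = 0.365). Both had every XEN array below ES. Within SF3a, Sf3a1 read 175.9, 254.5 and 241.6 units in XEN and 386.7 in ES, and did not pass (adjusted p = 0.171). Sf3a2 read 769.1, 621.7 and 720.5 units in XEN, with ES inside that range at 690.5, from a probe set of a type that may detect related transcripts. Differences between the subunits were not tested. Among SF3b genes, the log2 difference was -0.84 for Sf3b3, -0.77 for Sf3b6, -0.61 for Sf3b1, -0.10 for Sf3b2 and -0.06 for Sf3b5, none past the threshold (adjusted p of 0.161 to 0.935).

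Snrp genes, which encode snRNP core and particle proteins, gave 0 calls (3 lower and 1 higher at an unadjusted p under 0.05, the cut that 14.5% of all probe sets passed as lower and 15.1% as higher) and a median of -0.53, with 6 of 8 below 0. Snrpa1, the A' protein of U2, read 243.5, 290.6 and 166.1 units in XEN and 525.7 in ES (log2 difference -1.17 ± 0.37, adjusted p = 0.101). Its partner in the same particle, the B'' protein gene Snrpb2, went the other way at 232.1, 85.5 and 167.0 units in XEN and 46.0 in ES (1.51 ± 0.53, adjusted p = 0.127), a wide scatter among XEN cultures. A second probe set of Snrpb2 was under the limit on all arrays and was not tested. Of the Sm ring genes, Snrpd3 averaged 155 ± 38.7 units in XEN and 342 in ES (adjusted p = 0.0911), and Snrpe 1219 ± 231 and 2138 (adjusted p = 0.143). Snrpg read 1353.2, 1147.9 and 1691.4 units in XEN against 1890.8 in ES, while Snrpb, at 2073.8, 1714.2 and 2156.6 against 2066.2, had ES inside the XEN range.

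Prpf genes, most of which act in the tri-snRNP or the activated spliceosome, had 6 of 8 below 0, a median of -0.61 and 0 calls (3 lower unadjusted). Prpf8, the large protein at the catalytic centre, read 1044.5, 886.3 and 927.3 units in XEN and 1544.9 in ES (log2 difference -0.69 ± 0.26, adjusted p = 0.141). Prpf38a, a factor of spliceosome activation, read 233.5, 203.0 and 172.5 units against 408.7 (-0.98 ± 0.29, adjusted p = 0.0885). The tri-snRNP proteins Prpf6 and Prpf31 and the ubiquitin ligase Prpf19 also had ES above every XEN array, with log2 differences of -0.92, -0.69 and -0.53, none past the threshold. Prpf39, a U1-associated factor, was dim everywhere, at 9.40, 22.6 and 35.6 units in XEN and 8.40 in ES, and was tested only because XEN1-3 reached the limit.

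**Figure D3:**
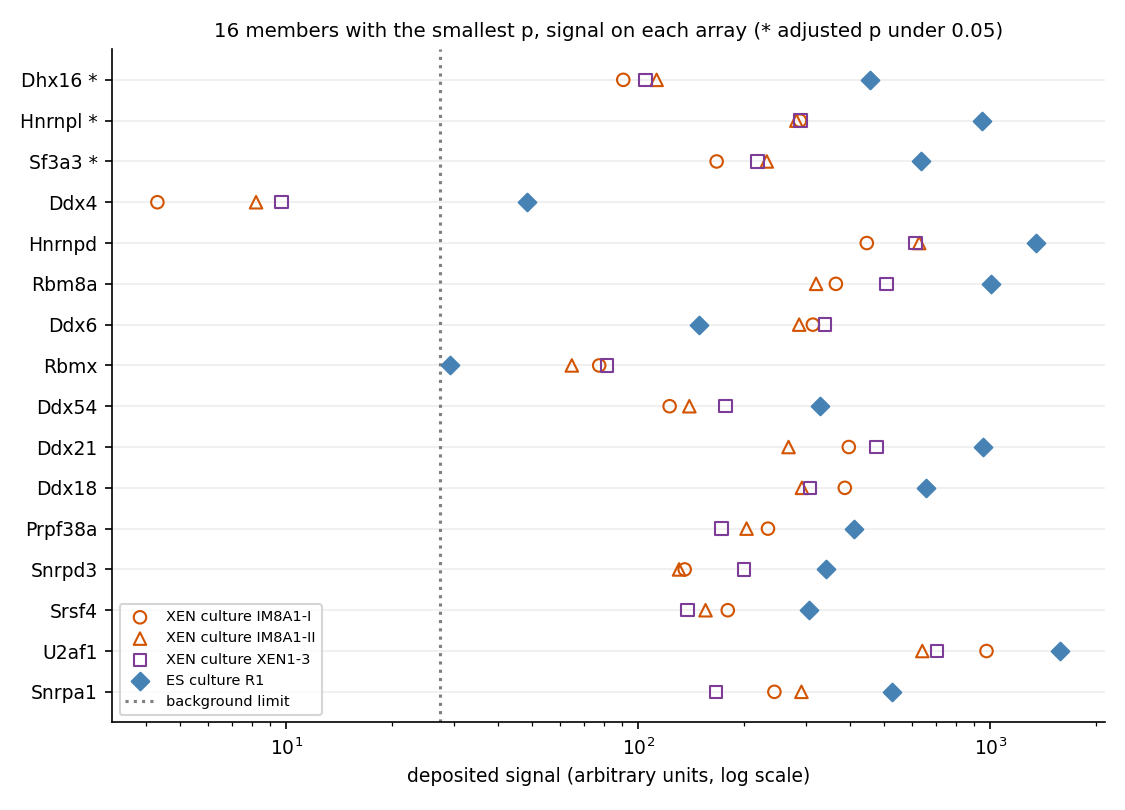
Deposited signal (horizontal axis, arbitrary units, log scale) on each array for the 16 members with the smallest p, from the smallest at the top. Open symbols are the 3 XEN cultures and filled diamonds the ES culture. In all 16 rows the ES value lies outside the XEN values, above them in 14 rows and below them for Ddx6 and Rbmx.

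SR protein genes leaned one way by small amounts. Of these, 7 of 9 were below 0, the median was -0.47 and 0 passed (1 lower unadjusted). Srsf2 read 3247.1, 2976.8 and 3214.0 units in XEN and 4448.7 in ES (log2 difference -0.50 ± 0.23, adjusted p = 0.220). Srsf9 read 901.4, 742.6 and 841.8 against 1226.7 (adjusted p = 0.218). The largest difference was that of Srsf4, at 179.5, 155.2 and 138.1 units in XEN and 306.2 in ES (-0.92 ± 0.28, adjusted p = 0.0953), and a second probe set gave -1.05. Srsf5 and Srsf1 had ES within the XEN range (log2 differences of 0.02 and 0.07). For Srsf1, the founding member of the family, another probe set gave -0.73 (adjusted p = 0.241), so its probe sets did not point one way.

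Among hnRNP genes, 12 of 16 were below 0, the median was -0.30 and Hnrnpl was the only call (2 lower unadjusted). Hnrnpd (AUF1), which binds AU-rich elements of messenger RNAs, read 445.7, 627.9 and 613.7 units in XEN and 1352.6 in ES (log2 difference -1.27 ± 0.31, adjusted p = 0.0577). Its relative Hnrnpdl read 1184.7, 1384.4 and 1435.8 units against 1991.8 (-0.58 ± 0.26, adjusted p = 0.204). Hnrnpk, Hnrnph1, Hnrnph2, Hnrnph3, Hnrnpc, Hnrnpu and Hnrnpab had ES within the XEN range. Hnrnpa2b1 gave opposed readings. The probe set that represents it read 847.2, 1447.9 and 1544.8 units in XEN and 2239.8 in ES (-0.85, adjusted p = 0.221), whereas its other probe set read 562.8, 445.4 and 189.4 units against 89.4 (1.90, adjusted p = 0.101). No statement on the gene as a whole can be made from these 2 probe sets. In 9 further genes the tested probe sets lay on both sides of 0 by smaller amounts. These were Ddx24 (-0.27 for the set that stands for the gene, 0.68 for the other), Ddx25 (0.40, -0.21), Ddx27 (-0.38, 0.72), Ddx50 (-0.44, with 0.77 and 0.55), Hnrnpul2 (0.24, -0.26), Prpf19 (-0.53, 0.12), Rbms1 (-0.05, 0.37), Sf3a2 (0.022, -0.07) and Srsf1.

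**Figure D4:**
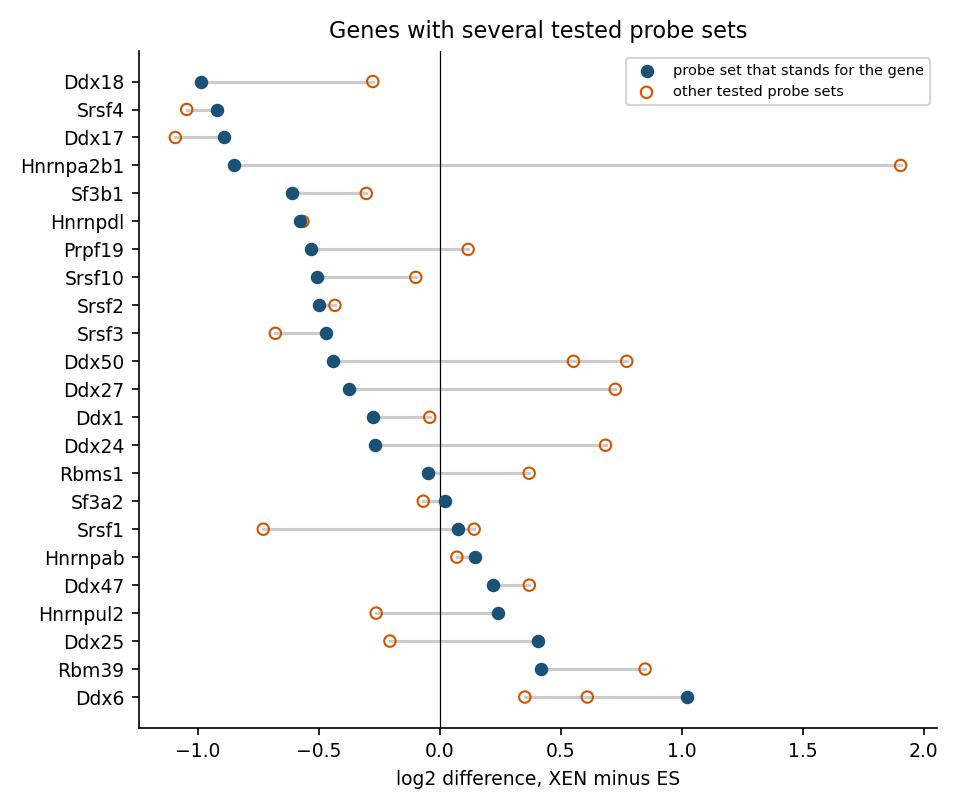
Log2 difference, XEN minus ES (horizontal axis), of each tested probe set of the 23 members with at least 2 tested (rows). Filled points represent the gene and open points are its other probe sets. In 13 genes all tested probe sets lie on one side of 0 and in 10 they do not, with Hnrnpa2b1 the widest apart.

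DEAD box helicase genes were spread on both sides, with 15 of 22 below 0, a median of -0.27 and 0 calls (5 lower and 1 higher unadjusted). The helicases known from ribosome assembly that are named next are examples, chosen after their values were seen, and not a full list. These examples lay on either side of 0. Ddx21 read 396.2, 267.1 and 474.8 units in XEN and 952.5 in ES (log2 difference -1.34 ± 0.38, adjusted p = 0.0786). Ddx54 averaged 146 ± 27.6 units in XEN and 328 in ES (adjusted p = 0.0745), and Ddx18 averaged 328 ± 50.6 and 657 (adjusted p = 0.0863). All 3 had ES above every XEN array, though a second Ddx18 probe set gave a log2 difference of -0.28 beside the -0.99 of the first. Ddx52, Ddx49 and Ddx47 had ES below every XEN array, with log2 differences of 0.43, 0.33 and 0.22. Ddx52 read 169.4, 132.8 and 132.4 units in XEN against 104.2 in ES (adjusted p = 0.370). Ddx10 and Ddx56 had ES within the XEN range.

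Ddx4, the vasa homologue of germ cells, stood at 4.30, 8.20 and 9.70 units in XEN, all under the limit, and 48.2 in ES, at least 1.77-fold lower in XEN (adjusted p = 0.0563). It was tested only because the ES array reached the limit. Ddx6, a helicase of messenger RNA repression and decay, was higher in every XEN culture, at 313.2, 286.3 and 338.8 units against 148.6 in ES (1.02 ± 0.27, adjusted p = 0.0676). Its other probe sets gave 0.61 and 0.35, so all 3 pointed the same way without passing. Ddx39b, the messenger RNA export helicase, read 1381.0, 1034.7 and 795.4 units in XEN against 1175.7 in ES, and Ddx1 read 716.0, 659.0 and 652.7 against 821.0. Neither passed the test (adjusted p of 0.793 and 0.505), with ES within the XEN range for Ddx39b and above it for Ddx1. Ddx17 averaged 546 ± 127 units in XEN and 1004 in ES (adjusted p = 0.147), while its paralogue Ddx5 had ES within the XEN range.

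Of the other DEAH box genes, Dhx30 read 206.2, 179.5 and 281.8 units in XEN and 425.4 in ES (log2 difference -0.93 ± 0.34, adjusted p = 0.134). Dhx36, which unwinds G-quadruplexes, read 254.4, 210.5 and 232.6 units against 257.4. Dhx9 differed by 0.07 in log2 and Dhx15, known for releasing spent spliceosomes, by 0.16. Over the 6 Dhx genes tested the median was -0.52, with 4 below 0 and 1 call (2 lower unadjusted).

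Rbm genes, grouped by their RNA-binding motif name and mixed in function, were the family nearest to the array as a whole, with 8 of 15 below 0, a median of -0.05 and 0 calls (1 lower and 1 higher unadjusted). Rbm8a (Y14), a core protein of the exon junction complex that splicing leaves on messenger RNAs, read 364.1, 319.9 and 507.2 units in XEN and 1005.6 in ES (log2 difference -1.34 ± 0.34, adjusted p = 0.0617). The splicing factor gene Rbm17 read 704.1, 633.4 and 827.0 units against 1139.5 (adjusted p = 0.184). Rbmx, which encodes the hnRNP G protein, was higher in every XEN culture at 77.4, 64.7 and 81.4 units against 29.1 in ES (1.10 ± 0.30, adjusted p = 0.0713), but dim throughout. Rbm39 was also higher, at 488.5, 350.2 and 303.8 units against 276.7, with adjusted p = 0.461.

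Splicing genes whose names fall outside the rule were read from 5 lists, whose counts stand beside the 5.05% lower and 5.58% higher calls of the whole array. Over the 5 lists there were 10 calls, and without IM8A1-I or without IM8A1-II 1 was left, that of Strap, while without XEN1-3 there were 15. Calls over all probe sets also became fewer without IM8A1-I or IM8A1-II and more without XEN1-3, so these shifts are not particular to the lists. Of 15 tested snRNP proteins 2 fell, 0 rose, and the median log2 difference was -0.55. These were Snrnp40, a U5 protein, at 228.3, 177.3 and 180.2 units in XEN and 608.3 in ES, and Lsm7, of the Lsm rings, at 174.4, 205.1 and 301.0 against 988.1 (adjusted p of 0.0277 and 0.0251). Of 18 factors of the catalytic steps 3 fell, 0 rose, and the median was -0.61. The 3 were Cdc5l and Crnkl1, both of the Prp19-associated complex, and the helicase-like Aqr. Cdc5l read 241.0, 236.9 and 223.2 units in XEN and 784.7 in ES (-1.70 ± 0.26, adjusted p = 0.0178).

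Among 35 tested splicing regulators 3 fell, 1 rose and 31 did not pass, with a median of -0.27. Esrp1, the epithelial splicing regulator, was under the limit in all XEN cultures at 3.70, 4.60 and 23.8 units and stood at 156.8 in ES, at least 5.74-fold lower in XEN (adjusted p = 0.0317). Elavl2 and Celf4, best known from neurons, were at least 3.44-fold and 3.23-fold lower. These 3 genes were under the limit in every XEN culture and were tested only because the ES array reached it. Celf4 was read from a probe set of a type that may detect related transcripts. Mbnl1, a regulator of splicing in differentiating cells, was the one that rose, at 131.0, 93.6 and 114.3 units in XEN and 31.7 in ES (1.54 ± 0.31, adjusted p = 0.0348). In the list of SR protein kinases and snRNP assembly factors 1 of 14 rose and 0 fell (median -0.36). That gene was Strap, a partner of the SMN complex, at 688.2, 635.1 and 977.1 units in XEN and 54.6 in ES (3.55 ± 0.34, adjusted p = 0.00596). Of 12 exon junction, export and other helicase genes 0 passed (3 lower unadjusted, beside 14.5% of all probe sets, median -0.29).

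Between the XEN cultures, which have 1 array each and no test, the members differed little. IM8A1-II was at least 2-fold from IM8A1-I for 2 of 95 members, both lower, where 5.98% of all probe sets were that far apart (2.47% lower and 3.51% higher). Hnrnph3 read 97.6 units in IM8A1-II and 281.0 in IM8A1-I (log2 difference -1.43), and Snrpb2 read 85.5 and 232.1 (-1.34). XEN1-3 was at least 2-fold from IM8A1-I for 2 members, beside 9.11% of all probe sets (4.53% lower and 4.58% higher). Ddx25, a testis helicase in its best known role, was lower in XEN1-3 at 77.1 units against 165.6 in IM8A1-I (-1.01). Prpf39 was higher at 35.6 against 9.40 (1.21), but its IM8A1-I value was under the limit. It was tested only because XEN1-3 reached the limit, and was not 2-fold apart with values raised to the limit. The other tested probe set of Ddx25 read 84.1 and 80.5 units. The members' median differences were -0.10 for IM8A1-II and -0.01 for XEN1-3, against 0.01 and 0.04 over all probe sets.

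**Figure D5:**
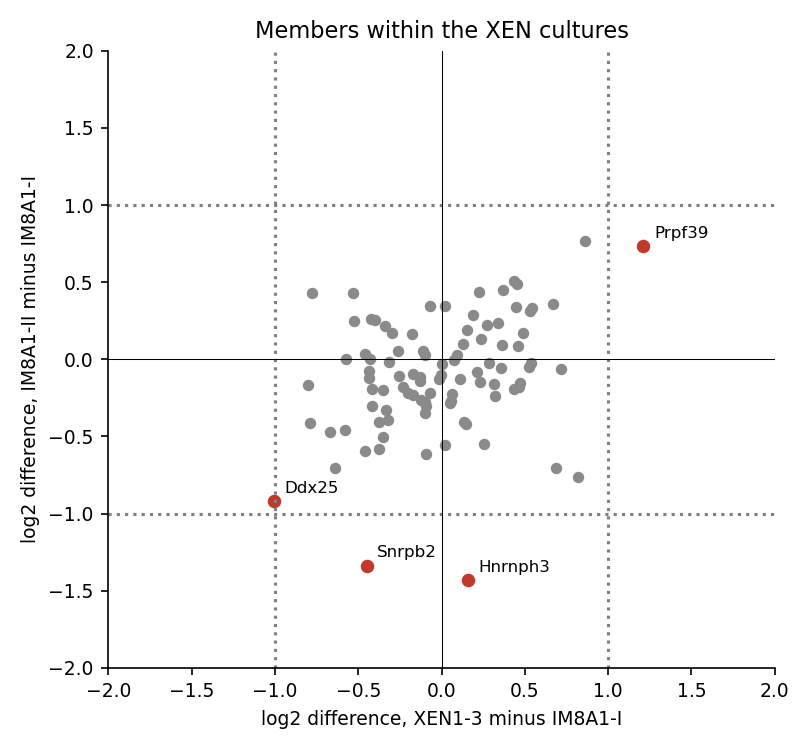
Log2 difference of each tested member between XEN cultures, XEN1-3 minus IM8A1-I (horizontal axis) and IM8A1-II minus IM8A1-I (vertical axis), which share the IM8A1-I array. Dotted lines mark a 2-fold difference, and the 4 red points beyond them are Hnrnph3, Snrpb2, Ddx25 and Prpf39.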

How the data were processed

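Signals were read from the deposited series matrix of 4 arrays and 12488 probe sets. The deposited intensity values are linear summaries, 1 per probe set and array, and the summarising software is not stated in the labels or headers read here. Their 2% trimmed means (150.1 units on each array) show that the authors' values were already scaled. Chip lot, run day and fluidics messages were read per the file headers. Arrays were set to one shared 2% trimmed mean (factor 1.00 for each), 10.5 units (the 25th percentile) were added and log2 was taken, so differences of dim genes are understated. A probe set was tested if 1 array or more reached the 40th percentile (27.3 units), which kept 8582 of those that are not controls. XEN (3 arrays) and ES (1 array) were compared by a two-sided moderated test (limma 3.58.1, R 4.3.3, lmFit and eBayes with a trend). It had 2 residual and 3.76 prior degrees of freedom, so the SE of a gene rests in large part on other probe sets. P-values were adjusted by Benjamini-Hochberg over every probe set tested, and 0.05 was the threshold. The fit was tested on simulated data drawn at the arrays' spread, where it recovered many very large changes and missed those of the members' size. Fewer probe sets were changed there than were called in the real data. The simulation therefore does not measure how many changes of that size the real fit misses. A gene that missed the threshold is not shown to be unchanged. Alternatives were other offsets, filters, scalings, probe set choices and leaving out each XEN array.

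Symbols came from the platform annotation (10833 probe sets with 1 symbol, 396 with several, 1193 with none, controls aside). All 97 members were found by gene ID in RefSeq. Probe sets were not placed on a genome here. In 13 members the representing probe set has a suffix other than plain _at. Affymetrix gives _s_at and _f_at to sets that may detect related transcripts. Such sets represent Hnrnpdl and Srsf2 (_s_at) and Rbm14, Sf3a2, Sf3b2, Snrp1c-ps2, Snrpe and Srsf3 (_f_at). The sets of Ddx27, Ddx51, Rbm22, Snrpb and Snrpb2 end in _r_at or _i_at. The members and lists were chosen with earlier results of these data known. Named genes were members past the threshold, the 2 with the highest mean signal and the 1 with the largest difference per family, those 2-fold apart within XEN, and those with another probe set at least 1 from 0 in log2 on the opposite side (Hnrnpa2b1). Other members are named as examples, chosen after their values were seen. Figures were drawn with matplotlib 3.10.9.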

Additional observations from a re-analysis of the deposited data

How the results depend on the processing

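The members called lower numbered 3 or 4 under most alternatives, 5 with median scaling, and 1 to 10 when 1 XEN culture was left out (1 without IM8A1-I, 1 without IM8A1-II and 10 without XEN1-3). None was called higher under any alternative. Over all probe sets the calls numbered 366 to 1488 without 1 XEN culture (366 without IM8A1-I, 444 without IM8A1-II and 1488 without XEN1-3), against 912. The members' median stayed below 0 throughout, at -0.29 with the 50th percentile as offset and -0.39 with a filter at the 60th percentile. It was -0.44 with median scaling and -0.27 with the mean of a gene's probe sets. With median scaling the median over all probe sets also moved, from 0.05 to -0.04. The counts of members with ES above all XEN arrays (56 to 62), below them (10 to 19) and with a difference below 0 (68 to 77) kept within 1.5 times of the reported value under both scalings and without each XEN culture. Over all probe sets the shares moved as well, from 34.0% to 39.5% (ES above), 34.6% to 44.3% (ES below) and 46.6% to 52.2% (below 0). These counts and shares, and the restriction to plain _at probe sets, were added after seeing the data. Without 1 XEN culture, also added later, the other lists gave 0 to 3 lower calls (snRNP proteins), 0 to 4 (catalytic factors), 0 to 4 with 0 to 1 higher (regulators), 0 to 1 (kinases and assembly) and 0 to 1 (exon junction and export), highest without XEN1-3. Ddx4 passed as lower with values raised to the limit (0.00294), with the 50th percentile as offset, without a filter, with median scaling, without a variance trend and without XEN1-3. Without 1 XEN culture the log2 difference ran from -0.61 to 0.19 for Hnrnph3 and -0.13 to 0.033 for Snrpb (highest without IM8A1-II), and from -0.37 to 0.024 for Ddx39b (highest without XEN1-3), none past the threshold. Hnrnpa2b1 was 0.53 with the mean of its probe sets. The 2-fold members of XEN1-3 against IM8A1-I numbered 0 with the 50th percentile as offset, and 1 with values raised to the limit, with a filter at the 60th percentile and with the mean of a gene's probe sets. Where these counts moved, the cause was not tested, apart from fewer arrays or genes. No paired analysis was possible because ES had 1 array. The number of arrays limits the precision.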

Other observations

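The array also holds 10 probe sets annotated with several symbols, which were left out of the members. Those with Hnrnpa1 or Rbm14 among their symbols belong in part to genes that are already members. Some other spliceosome and hnRNP genes are on the array only in such sets. By limma 0 of the 10 passed at an adjusted p under 0.05. At an unadjusted p under 0.05, 4 were lower and 1 higher, beside 14.5% and 15.1% of all probe sets tested. The set shared by Snrpd2, an Sm ring gene, and Gm5848 read 721.9, 867.5 and 1157.6 units in XEN and 1986.5 in ES (log2 difference -1.14, adjusted p = 0.0878). The set shared by Snrpa, the A protein of U1, with Gm21559 and Gm5161 read 359.5, 306.0 and 367.6 units in XEN and 742.3 in ES (-1.09, adjusted p = 0.0594). The set of Rbm10 and Gm15455 read 79.1, 61.5 and 106.9 units in XEN and 217.3 in ES (-1.32, adjusted p = 0.0711). The brighter set of Hnrnpa3 and Gm6793 read 2411.2, 2540.8 and 2304.9 units in XEN and 3870.1 in ES (-0.68, adjusted p = 0.126), and a dim set with the same symbols gave 0.94. The set of Rbm3, a cold-inducible RNA-binding protein, and its pseudogene had ES within the XEN range. The set of Hnrnpa1 with Gm10052 and Gm5643 read 349.5, 320.1 and 280.8 units in XEN and 242.0 in ES (log2 difference 0.37). Another set, of Hnrnpa1 and Hnrnpa1l2-ps2, gave -0.58, and the set that represents Hnrnpa1 among the members gave -0.41. How these sets divide between their symbols was not tested.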
